A study of Mus musculus with 10 samples.

Results

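The genes described here encode the proteins of the cytosolic ribosome, across 5 sorted groups of antigen-presenting cells of the mouse. Members were chosen by symbol: Rpl or Rps followed by a number, together with Rplp0, Rplp1, Rplp2 and Rpsa, leaving out the S6 kinases (Rps6k) and pseudogene symbols containing "-ps". The rule gave 86 of the 22607 genes in the deposited tables. Of these, 52 belong to the large (60S) subunit and 33 to the small (40S) subunit. The remaining member, Rps19bp1, fits the symbol rule but encodes a binding partner of Rps19 and not a ribosomal protein.

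Ribosomes translate every mRNA of the cell, and their proteins are made in near-equal amounts from single-copy genes that are scattered over the genome. The mRNAs typically begin with a C and a run of pyrimidines, the 5′ terminal oligopyrimidine (TOP) motif, through which the kinase mTOR and the RNA-binding protein Larp1 adjust their translation and stability. Dendritic cells and macrophages of the gut wall sample antigen, and their translation is known to respond to activation. A few members have paralogs whose expression differs between tissues, among them Rps27l, a known p53 target, and Rpl22l1.

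Polyadenylated RNA was sequenced from sorted cells of C57BL/6 mice, wild-type and 8 weeks old, in 10 libraries that form 5 groups of 2. The first set of 4 libraries held cells sorted as positive for MHC class II (MHCII+) from colon and from spleen. The second set of 6 held colonic mononuclear phagocytes and dendritic cells sorted as CD11c+, CD11b+ or positive for both (CD11b+CD11c+). The tissue rests on reading the abbreviated titles with the design text, no group carried a treatment or an altered allele, and the sources used here give no further gates. Whether the paired libraries of a group stem from different animals is not stated in the labels, so p-values cover only the library-to-library spread, and this may be technical. The 2 sets were fitted separately and were not tested against each other.

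Estimated counts per library, summed over all transcripts, ran from 12806139 to 41769042. Defining markers fitted the labels in part and also showed other cell types. Summed TPM (the deposited abundance per coding length, relative to the library's total) of 8 dendritic cell genes reached 832.8 and 878.0 for CD11c+, 438.3 and 332.5 for CD11b+CD11c+ and 138.7 and 135.3 for CD11b+ cells, and that of 8 macrophage genes was 138.7 and 652.4, 3960 and 5300.4, and 3674 and 4207. Colonic MHCII+ library 2 stood apart from its partner in the members. Its fragments were shorter, as the deposited lengths exceeded the effective lengths by a median of 191.4 bases against 228.2 in library 1 and 208.7 to 224.4 in the other 8 libraries. The SD over members of the log2 ratio between the 2 libraries of a group was 0.22 in the colonic MHCII+ group and 0.06 to 0.07 in the other groups.

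The start sites of 11 members with results below are shown because TOP mRNAs are defined by their first bases. Each sequence runs 5′ to 3′ on the gene's strand from 10 bases before the annotated start, in RefSeq annotation of GRCm38.p6 (the mm10 build), and capitals run from a C within 5 bases of that start to the end of its run of at least 4 further pyrimidines. Pyrimidines in lower case may precede that C. Rpsa lies at chr9:120127756-120127785 (+), Rpl14 at chr9:120571507-120571536 (+), Rpl13a at chr7:45128726-45128755 (-), Rpl12 at chr2:32961702-32961731 (+), Rps27 at chr3:90213629-90213658 (-), Rps27l at chr9:66946076-66946105 (+), Rpl22l1 at chr3:28805498-28805527 (+), Rps19 at chr7:24884582-24884611 (+), Rpl22 at chr4:152325716-152325745 (+), Rpl36a at chrX:134585644-134585673 (+) and Rpl36al at chr12:69184048-69184077 (-).
Rpl14: ggccctCTCTCTTCTCgctgagcgccgcca
Rpl13a: cctgcgacaagaCCTCCTCCTTTCCCaggc
Rpl12: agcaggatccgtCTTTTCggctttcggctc
Rps27: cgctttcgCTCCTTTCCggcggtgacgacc
Rps27l: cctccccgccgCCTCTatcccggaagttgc
Rpl22l1: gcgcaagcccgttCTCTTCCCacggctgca
Rpsa: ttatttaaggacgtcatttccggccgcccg
Rps19: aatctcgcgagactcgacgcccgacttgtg
Rpl22: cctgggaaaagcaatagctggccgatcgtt
Rpl36a: cccaggcaccgcctataaacttccgttgcg
Rpl36al: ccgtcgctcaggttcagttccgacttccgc
With the pyrimidines before the capitals counted in, the unbroken runs were 14 bases long in Rpl14 and in Rpl13a, 7 in Rpl12, 9 in Rps27, 5 in Rps27l and 10 in Rpl22l1. In the other 5, Rpsa, Rps19, Rpl22, Rpl36a and Rpl36al, no such C lay within 5 bases of the annotated start, which says only that these letters are not in this window.

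Promoter sequences were matched by symbol for 65 ribosomal members. The annotated start itself was a C followed by at least 4 pyrimidines in 13 of the 65 (20%), against 2.20% of 10776 other genes tested in the colonic subsets. Within 5 bases of the start the pattern was found in 29 (44.6%) against 20%. In the 300 bases from 250 before to 50 after the start, searched on both strands, the letters CCATNTT of the factor YY1 were found in 20 members (30.8%) against 14.9%, and the letters CCGGAAG bound by ETS factors in 25 (38.5%) against 17.1%. The TATA box letters TATAAA were found in 6 members (9.23%) against 7.75%. Over all 27025 promoters of the table, these patterns were found in 2.49%, 18.5%, 16.3%, 9.12% and 14.2% in the order given. A match is a description of the sequence and not a measured binding site.

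Members were among the most abundant transcripts of every group. Of the 86, 81 had a mean above 100 TPM over the 10 libraries, from 321.9 to 6004 with a median of 1286 TPM. TPM is per length, and it is the scale on which levels of different genes are compared. The 5 highest were Rps29 (6004 TPM), a small zinc-binding protein of the 40S subunit, Rpl39 (4163 TPM), which lines the exit tunnel, Rpl41 (3683 TPM), the shortest ribosomal protein, Rps28 (3058 TPM), near the mRNA exit of the 40S subunit, and Rplp1 (2946 TPM) of the 60S stalk that recruits elongation factors. Coding sequences of Rps29, Rpl39, Rpl41 and Rps28 are 171, 156, 141 and 210 bases long, below or close to the fragment lengths, so their TPM rests on a large length correction. The ranking counts Rps27 (1693 TPM) and its copy Rps27rt (1691 TPM) as separate members, though their reads cannot be told apart. Summed, these 2 would rank above Rps28 and Rplp1.

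Rps29 was at 4747 and 6203 TPM in colonic MHCII+ cells and 6585 and 7155 TPM in splenic ones, at 6454 and 6491 TPM in CD11c+, 6167 and 5786 TPM in CD11b+CD11c+ and 5384 and 5071 TPM in CD11b+ cells. Its order among the subsets held with no overlap between libraries. The 40S and 60S members kept a steady balance, with a ratio of 60S to 40S counts of 1.33 to 1.41 in the 10 libraries.

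The 5 members under 100 TPM were paralogs and the binding partner. Rpl7l1, a relative of Rpl7 with a role in ribosome assembly, had a mean of 59.2 TPM and stayed between 6.41 and 8.86% of the Rpl7 level in every library. Rps19bp1 had 30.7 TPM. Rpl39l, a paralog of Rpl39 known from testis, had 5.57 TPM and at most 20 counts in a library. Rpl3l, known from muscle, had 0.353 TPM and at most 34 counts, and Rpl10l, known from testis, had 0.0272 TPM and at most 2 counts. Rpl10l did not pass the filter on low counts in either set, and Rpl39l and Rpl3l did not pass it in the colonic subsets, so 85 members were tested in the MHCII+ set and 83 in the subsets.

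Together the members took a larger share of the RNA in CD11c+ cells than in either CD11b+ subset. Of all gene counts they made up 7.10 and 6.41% for CD11c+, 4.99 and 4.31% for CD11b+CD11c+ and 4.31 and 4.08% for CD11b+ cells. The CD11c+ libraries lay above all 4 others, while the lower CD11b+CD11c+ library and the higher CD11b+ library had the same share. In the MHCII+ set the share was 6.07 and 6.75% in colonic and 6.84 and 7.30% in splenic cells. These pairs did not overlap, but the gap between them was smaller than the gap within either pair. Group means were 6.75% ± 0.488, 4.65% ± 0.481 and 4.20% ± 0.163 (SD, n = 2) in CD11c+, CD11b+CD11c+ and CD11b+ cells and 6.41% ± 0.481 and 7.07% ± 0.325 (SD, n = 2) in colonic and splenic MHCII+ cells. Counts and TPM are shares of a library, and in sorted bulk samples fewer cells of a type and less RNA per cell cannot be told apart.

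**Figure D1:**
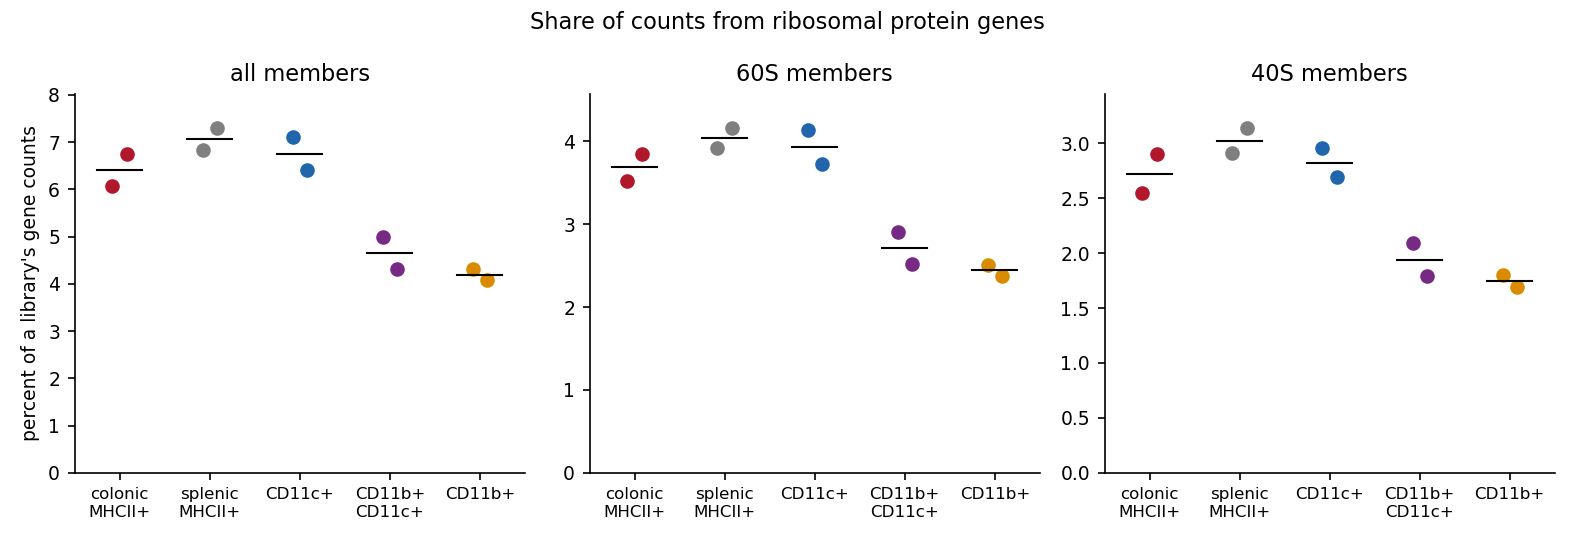
Share of a library's gene counts (percent) from all 86 members, from the 60S members and from the 40S members, by group. Each point is 1 library and each line the mean of the 2 libraries; the CD11c+ libraries sit at 7.10 and 6.41%, above the 4 libraries of the other subsets at 4.08 to 4.99%.

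Immunoglobulin transcripts took 5.62 and 7.21% of the counts in the CD11c+ libraries and 1.62 to 2.95% in the other subset libraries. With those genes taken out of the total, the members' mean share was 7.22% in CD11c+, 4.74% in CD11b+CD11c+ and 4.30% in CD11b+ cells. Summed TPM gave 12.4%, 9.70% and 8.58% of the total, in the same order, and 12.4% and 14.9% in colonic and splenic MHCII+ cells. The order of the subsets was thus the same on all 3 scales.

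**Figure D2:**
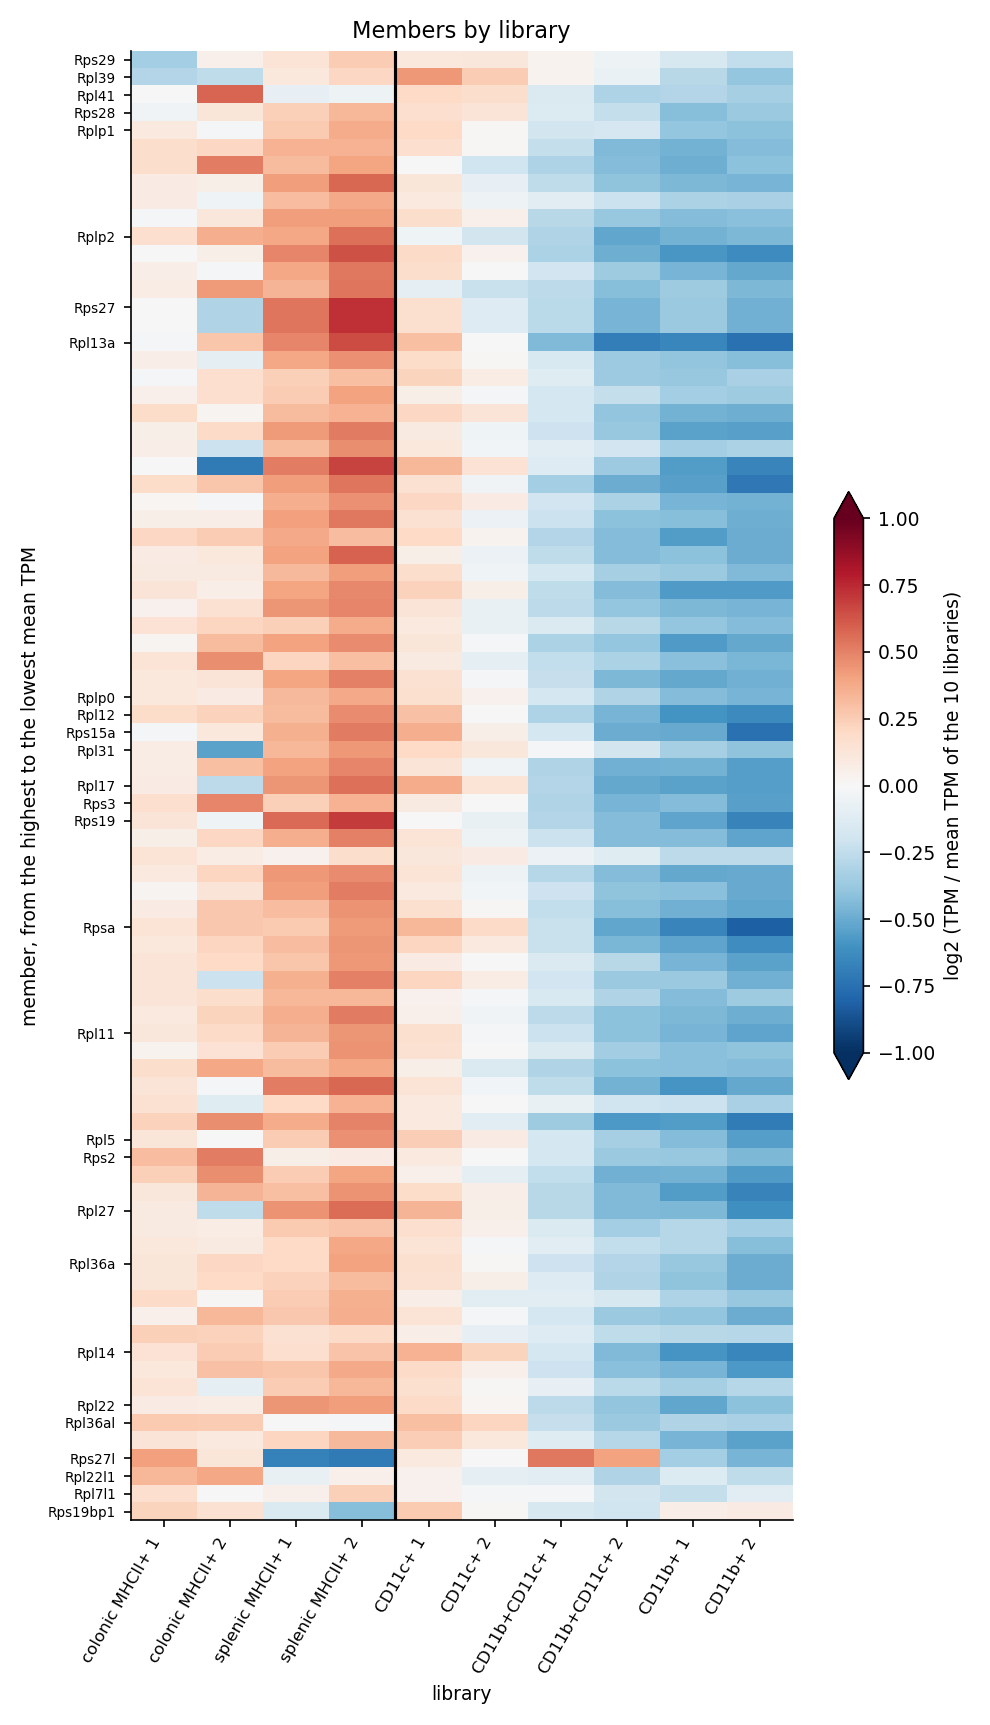
The 83 members with a mean above 10 TPM (rows, from the highest to the lowest mean, with most members described in the text labelled) in the 10 libraries (columns); colour gives the log2 of TPM over that member's mean of the 10 libraries. Nearly all rows are blue in the CD11b+ libraries, while Rps27l is red in the CD11b+CD11c+ libraries (691.4 and 632.6 TPM) and blue in the splenic ones (299.0 and 293.1 TPM).

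CD11b+ cells had lower levels of nearly every member than CD11c+ cells. The quasi-likelihood test of edgeR with Benjamini-Hochberg adjustment over all genes called 81 of 83 tested members lower and 0 higher, while 52.0% of all 14225 genes tested were called, 25.0% lower and 27.0% higher. The median log2 fold change of the members was -0.60 (1.52-fold lower) and that of all genes -0.02. Members moved by similar amounts: their log2 fold changes ranged from -1.07 to -0.20 with an SD of 0.16. The SD over all genes was 1.33, but here and below all genes include many with far fewer counts than the members. The 2 SDs are therefore not a like comparison. All 33 small subunit members and 48 of 49 large subunit members were called lower, with a median of -0.60 in each subunit. The 2 members not called were Rpl7l1 (log2 fold change -0.27, adjusted p = 0.0707) and Rps19bp1 (-0.20, adjusted p = 0.298).

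Rpsa, a 40S protein also described as a laminin receptor (mm10 chromosome 9), had the largest fall. It was at 983.2 and 908.7 CPM (counts scaled to a common library size with TMM factors) in the CD11b+ libraries and at 2047 and 1922 CPM in the CD11c+ libraries, so that each CD11b+ library was under 1000 CPM and each CD11c+ library far above (log2 fold change -1.07, SE 0.13, adjusted p = 0.00148). Rpl14, a 60S protein, followed at 460.4 and 452.1 against 923.2 and 886.4 CPM (adjusted p = 0.00131, log2 fold change -0.99, SE 0.11). Its groups were far apart in relation to the gap within each pair. Rpl13a, known also from a complex that silences translation of inflammatory mRNAs in interferon-treated myeloid cells, was at 849.1 and 809.4 against 1704 and 1459 CPM (-0.93, SE 0.13, with an adjusted p of 0.00257). Rpl17, which lines the exit tunnel, and Rps15a of the 40S subunit fell by 0.88 and 0.87 on the log2 scale. Rpl13a shares 64.4% of its 31-base words with a predicted gene that reached at most 0.593 TPM.

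At the other end, Rps29 and Rps9 fell by 0.35 and 0.33 on the log2 scale (adjusted p = 0.0247 and 0.0346), and Rpl22l1 fell by 0.29 (adjusted p = 0.0490). Rps29 was at 389.2 and 360.5 CPM in CD11b+ against 461.3 and 496.4 CPM in CD11c+ cells. The calls of Rps29 and Rpl22l1 were lost in 6 and 11 of 17 alternative fits.

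The stalk and its base lay within the range of the other members, and differences between members were not tested. Rplp0, the base on which the stalk is built, was at 1285 and 1266 CPM in CD11b+ against 1988 and 1906 CPM in CD11c+ cells (log2 fold change -0.61). Rpl12, beside it, was at 495.5 and 484.3 against 936.7 and 810.6 CPM (-0.83). Rplp1 was at 685.5 and 662.4 against 1036 and 978.1 CPM (-0.58), and Rplp2 at 423.6 and 421.8 against 574.4 and 560.3 CPM (-0.42). All 4 were called lower (adjusted p = 0.00205 to 0.0200), and the call of Rplp2 was lost in 5 of 17 alternative fits. Rpl5 and Rpl11, which carry the 5S ribosomal RNA into the 60S subunit and bind Mdm2 when assembly fails, were also called lower. Rpl5 was at 947.8 and 901.0 against 1605 and 1479 CPM (-0.74), and Rpl11 at 502.3 and 488.1 against 803.5 and 754.2 CPM (-0.65).

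Every other role list had all its members called lower: 9 of 9 at the exit tunnel and exit site, 3 of 3 around the peptidyl transferase centre, 4 of 4 at mRNA entry and decoding, 3 of 3 at mRNA exit, 3 of 3 of the 40S beak and 18 of 18 of the genes mutated in Diamond-Blackfan anemia, a failure of red cell production. Only the list of paralogs and copies differed, with 4 of 5 tested called lower.

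**Figure D3:**
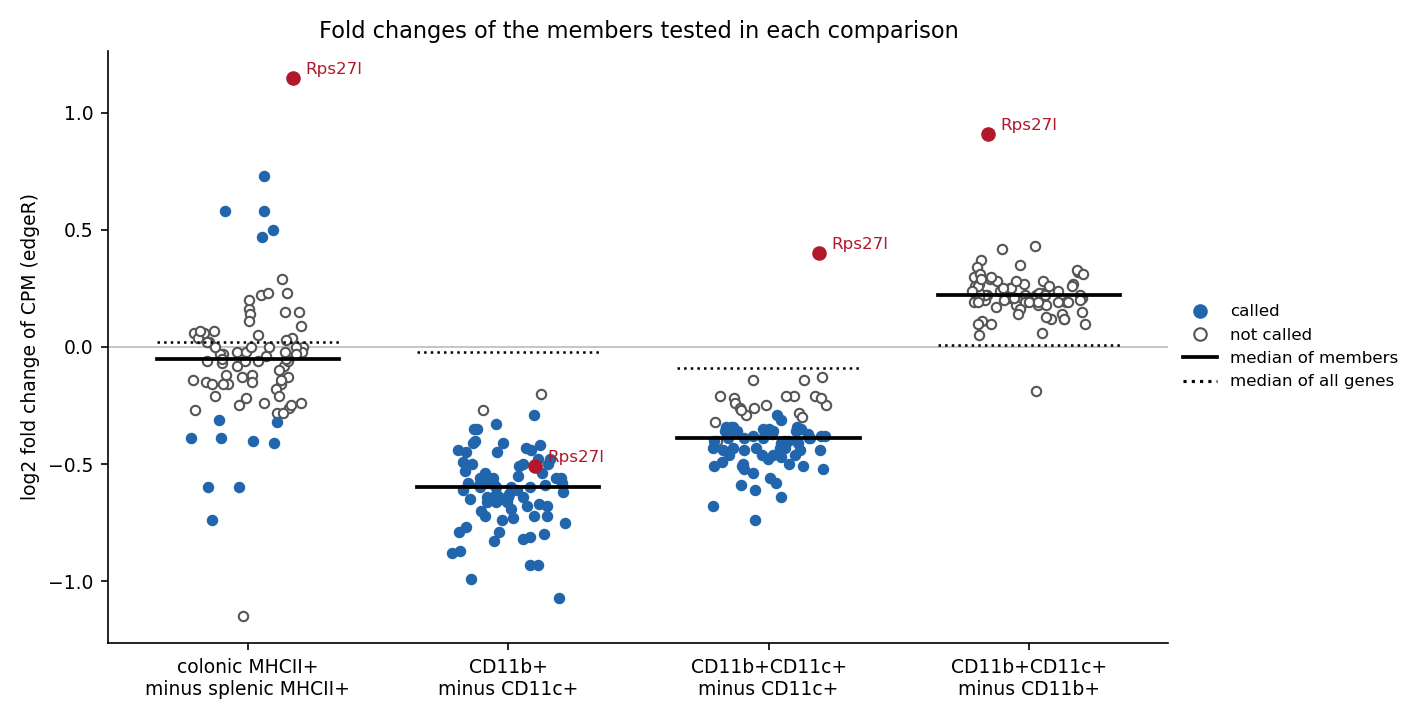
Log2 fold changes (edgeR) of the tested members in the 4 comparisons, 1 point per member, filled where called at an adjusted p under 0.05; solid lines are the medians of the members and dotted lines those of all genes. The members lie in a narrow band around -0.60 in CD11b+ minus CD11c+ and around -0.39 in CD11b+CD11c+ minus CD11c+, and Rps27l (red) lies above the other members in 3 of the 4 comparisons.

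Cell type markers differed between these groups as well. The summed TPM of 7 T cell genes was 705.0 and 227.9 in CD11c+ against 30.9 and 27.2 in CD11b+ libraries, with none of the 7 at 0. That of 6 plasma cell genes was 21796 and 27539 against 12405 and 9735 TPM, and that of 7 cell cycle genes 371.7 and 360.0 against 250.6 and 253.9 TPM. Markers of 6 neutrophil genes summed to 1.53 and 3.59 TPM in CD11c+ libraries, with S100a8 and Camp at 0 in both and S100a9 at 0 in library 1, and to 1285 and 1110 TPM in CD11b+ libraries. The 6 eosinophil genes summed to 11.8 and 18.7 against 179.2 and 160.0 TPM, with Epx at 0 in both CD11c+ libraries, 7 epithelial genes to 227.9 and 250.7 against 641.1 and 372.8 TPM, and 6 genes of stroma and endothelium to 207.5 and 241.2 against 717.3 and 636.7 TPM. Their part in the members' fall was not tested. The 2 CD11c+ libraries also differed from each other in several of these sums. Library 1 and library 2 had 705.0 and 227.9 TPM of T cell genes, 21796 and 27539 TPM of plasma cell genes and 138.7 and 652.4 TPM of macrophage genes. Without CD11c+ library 1 the median log2 fold change was -0.58 for the members and 0.0 for all genes. What part these differences had in the members' levels was not tested.

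CD11b+CD11c+ cells lay between the other subsets. Against CD11c+ cells, 62 of 83 tested members were called lower and 1 higher, where 43.0% of all genes tested were called, 22.5% lower and 20.4% higher. The median log2 fold change of the members was -0.39 (1.31-fold lower) and that of all genes -0.09, with an SD of 0.15 over members and 1.22 over all genes. Of the 40S members 27 of 33 were called lower, and of the 60S members 35 of 49. The size of the fall depended on single libraries. Whenever 1 library was left out, fewer members and also fewer of all genes were called lower. Without CD11b+CD11c+ library 2 the median of the members was -0.24, and without CD11c+ library 1 it was -0.35. The medians of all genes were then -0.03 and -0.09. Without CD11b+ library 1 and library 2, which lie outside this contrast, the members' median was -0.39 and -0.32 (all genes -0.1 and -0.03). Scaling by total counts moved the median of all genes to -0.23 and that of the members to -0.52. Relative to the median of all genes, which a change of scaling leaves alone by construction, the members were at -0.29.

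Rpl13a had the largest fall, at 1034 and 862.3 CPM in CD11b+CD11c+ against 1704 and 1459 CPM in CD11c+ libraries (-0.74, SE 0.13, with an adjusted p of 0.00684). Rpl17 was at 765.9 and 653.4 against 1197 and 1073 CPM (-0.68), and Rpsa at 1396 and 1143 against 2047 and 1922 CPM (-0.64). In each of these the groups did not overlap, and CD11b+CD11c+ library 2 was the lower of its pair. Rpl14 (-0.61), Rpl27 (-0.59) and Rpl36al (-0.58) completed the 6 largest falls. Without CD11b+CD11c+ library 2 the values were -0.56 for Rpl13a, -0.52 for Rpl17, -0.45 for Rpsa and -0.43 for Rpl14, and none of these 4 was then called (adjusted p = 0.0565, 0.0510, 0.0637 and 0.0545).

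Among the role lists, both 5S members were called lower (Rpl5 -0.44, Rpl11 -0.41), with calls lost in 3 and 6 of 17 alternative fits. Of the stalk, Rplp0 (-0.37), Rplp1 (-0.31) and Rpl12 (-0.54) were called, and these calls were lost in 5, 12 and 1 of 17 alternative fits. Rplp2 was not called (495.5 and 413.4 against 574.4 and 560.3 CPM, adjusted p = 0.0579). All 4 members at mRNA entry, 3 of 3 at mRNA exit and 3 of 3 of the beak were called lower, with 6 of 9 at the exit tunnel, 2 of 3 around the peptidyl transferase centre and 12 of 18 of the Diamond-Blackfan list. The highest member of all, Rps29, was at 452.1 and 415.8 against 461.3 and 496.4 CPM and was not called (adjusted p = 0.279).

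The marker sums again differed: 53.6 and 26.7 TPM of T cell genes in CD11b+CD11c+ libraries, 9134 and 7240 TPM of plasma cell genes, 102.7 and 119.4 TPM of neutrophil genes and 327.0 and 333.2 TPM of cell cycle genes, beside the CD11c+ values above. Their part in this fall was not tested either.

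Between the CD11b+CD11c+ and CD11b+ subsets, 82 of 83 fold changes were above 0, but only 1 member passed the test. The median log2 fold change was 0.22 (1.16-fold higher) against 0.01 for all genes. The called member was Rps27l, and 0 members were called lower, where 9.63% of all genes tested were called, 3.79% higher and 5.84% lower. Other fits called more members higher at the same threshold, 27 with the Wald test of DESeq2 and 19 in a fit over all 10 libraries. They also called more of all genes higher, 7.14% and 7.3%, and none called a member lower. Rpsa, at 1396 and 1143 against 983.2 and 908.7 CPM, had a log2 fold change of 0.42 (SE 0.13, adjusted p = 0.0974), and Rpl14 one of 0.37 (SE 0.11, adjusted p = 0.0991). In both the libraries did not overlap. Because the 3 subset comparisons share libraries, their values are not independent of each other.

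Markers differed between these subsets as well. In CD11b+CD11c+ against CD11b+ libraries, summed TPM was 102.7 and 119.4 against 1285 and 1110 for the 6 neutrophil genes, 19.1 and 24.1 against 179.2 and 160.0 for the 6 eosinophil genes, and 143.0 and 118.2 against 717.3 and 636.7 for the 6 stromal and endothelial genes. It was 438.3 and 332.5 against 138.7 and 135.3 for the 8 dendritic cell genes, and 327.0 and 333.2 against 250.6 and 253.9 for the 7 cell cycle genes. Their part in the members' values was not tested.

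Rps27l did not follow the other members. This paralog of Rps27 (mm10 chromosome 9, 66946086 to 66949516) is known as a direct target of p53. It was at 121.6 and 107.0 CPM in CD11b+CD11c+ cells, 86.3 and 86.9 CPM in CD11c+ cells and 64.9 and 57.2 CPM in CD11b+ cells. The 3 pairs did not overlap, with the double-positive cells highest. Against CD11b+ cells it was 0.91 higher on the log2 scale (SE 0.11, adjusted p = 0.00608), and this call was kept in all 17 alternative fits, with values from 0.81 to 1.08. Against CD11c+ cells it was 0.40 higher (SE 0.11, adjusted p = 0.0260), the only tested member with a positive value there, and the call was lost in 4 of 17 alternative fits, with values from 0.27 to 0.54. Between CD11b+ and CD11c+ cells it fell by 0.51 (SE 0.11, adjusted p = 0.0101), near the median of the members, a call lost in 1 of 17 alternative fits.

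In the MHCII+ set Rps27l had the largest rise of the members in the colon, at 102.4 and 99.5 CPM against 44.6 and 46.4 CPM in the spleen (1.15, SE 0.09, with an adjusted p of 8.76e-05). The call was kept in all 14 alternative fits, with values from 0.96 to 1.17. Its parent moved the other way: Rps27, a zinc-finger protein of the 40S subunit, was at 273.3 and 261.8 against 365.3 and 443.5 CPM (-0.60, SE 0.12, adjusted p = 0.00551). Rps27rt, a retrogene copy, shares all of its 31-base words with Rps27. The 2 received almost equal counts in every library and cannot be told apart, so their TPM is summed below.

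On the scale per length, Rps27l stood at 6.08 and 5.22% of the summed TPM of Rps27 and Rps27rt in the splenic libraries and at 18.7 and 19.0% in the colonic MHCII+ ones. It stood at 13.6 and 15.5% in CD11c+, 14.5 and 14.3% in CD11b+ and 24.6 and 25.8% in CD11b+CD11c+ libraries. The CD11c+ and CD11b+ libraries overlapped, and the double-positive libraries lay above both.

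**Figure D4:**
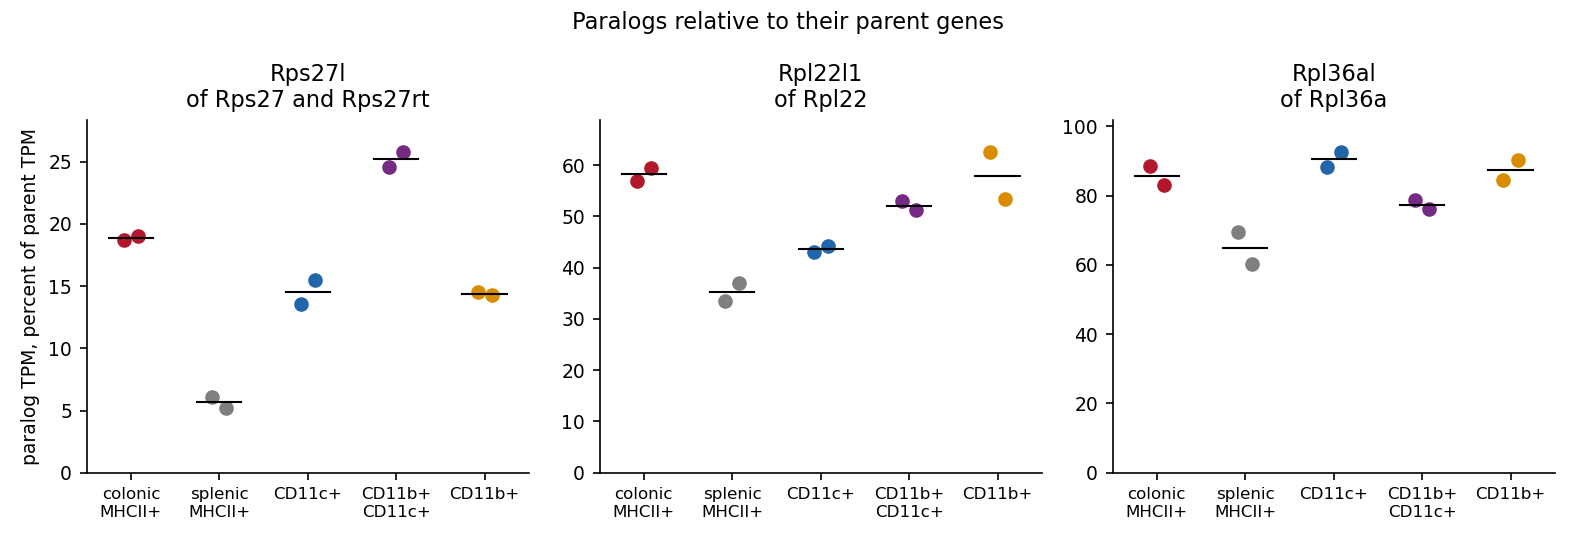
TPM of 3 paralogs as a percentage of the TPM of their parent genes, by group; points are libraries and lines the means of 2 libraries. Rps27l lies at 5.22 to 6.08% in the spleen and at 24.6 to 25.8% in CD11b+CD11c+ cells, and all 3 paralogs are lowest in the splenic libraries.

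Rpl22l1 and Rpl36al were also lowest in relation to their parents in the spleen. Rpl22l1, a paralog of Rpl22 that binds RNA and is known from lymphocyte development, was at 33.5 and 37.0% of the Rpl22 TPM in splenic and 56.9 and 59.5% in colonic MHCII+ libraries. In the subsets it was at 43.1 and 44.2% in CD11c+, 52.9 and 51.2% in CD11b+CD11c+ and 62.6 and 53.3% in CD11b+ libraries, so the CD11c+ libraries lay lowest there. In CPM, Rpl22l1 was at 122.6 and 150.1 in the colon against 85.5 and 96.4 in the spleen (log2 fold change 0.58, SE 0.13, adjusted p = 0.00778), and it was called in all 14 alternative fits.

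Rpl36al, a near relative of Rpl36a from an intronless gene, was at 69.6 and 60.3% of the Rpl36a TPM in splenic libraries and 88.5 and 83% in colonic MHCII+ ones. It was at 88.4 and 92.7% in CD11c+, 78.8 and 76.1% in CD11b+CD11c+ and 84.6 and 90.4% in CD11b+ libraries. The CD11c+ and CD11b+ libraries overlapped, and the double-positive libraries lay below both. In CPM it was at 198.3 and 231.3 in the colon against 153.3 and 157.3 in the spleen (0.47, SE 0.11, adjusted p = 0.00918), a call lost in 3 of 14 alternative fits.

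Colonic and splenic MHCII+ cells differed little in the members as a group. Of 85 tested, 6 were called higher and 9 lower in the colon (17.6% in all), where 60.3% of all 15076 genes tested were called, 31.6% higher and 28.7% lower. The median log2 fold change was -0.05 against 0.02 for all genes, and the SD was 0.30 over members and 2.44 over all genes. The number of calls and the median depended on the library left out. Without colonic library 1 and library 2 the median of the members was -0.01 and -0.18, and that of all genes -0.04 and -0.02. Without splenic library 1 and library 2 it was -0.11 and -0.02 for the members and 0.05 and 0.03 for all genes. Limma on log2(TPM + 1) called 2 members higher and 9 lower, where 22.4% of all genes were called higher and 27.8% lower.

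Beside Rps27l, Rpl22l1 and Rpl36al, the members called higher were Rps19bp1, Rpl41 and Rps2. Rps19bp1 was at 15.1 and 15.8 against 9.98 and 8.61 CPM (0.73, SE 0.18, adjusted p = 0.0117). Rps2, which helps to unwind mRNA at the 40S entry, was at 1579 and 1842 against 1225 and 1197 CPM (0.50, SE 0.12, adjusted p = 0.0100). The calls of Rps19bp1 and Rps2 were lost in 4 and 2 of 14 alternative fits. Rpl41 was at 211.3 and 335.2 against 179.7 and 186.1 CPM (0.58, SE 0.21, adjusted p = 0.0475). Most of the Rpl41 difference came from colonic library 2, since its fold change was 0.20 without that library, and its call was lost in 7 of 14 alternative fits.

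The members called lower included Rps27 and Rps27rt, described above. Rpl31, at the exit site, was at 474.5 and 359.7 against 532.8 and 573.4 CPM (-0.41, SE 0.15, adjusted p = 0.0499), and its call was lost in 9 of 14 alternative fits. Rps19, the gene most often mutated in Diamond-Blackfan anemia, was at 583.1 and 583.1 against 735.3 and 794.2 CPM (-0.39, SE 0.10, adjusted p = 0.0133). Rpl17 (-0.40), Rpl27 (-0.39) and Rps7 (-0.31) were also called lower. The calls of Rps19, Rpl17, Rpl27 and Rps7 were lost in 1, 3, 2 and 3 of 14 alternative fits. The lowest value, -1.15, belonged to Rpl3l, which had at most 34 counts in a library and was not called (adjusted p = 0.168).

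The stalk and the 5S members were not called in this set. Rpl5 was at a mean of 1387 ± 52.5 against 1519 ± 92.7 CPM (SD, n = 2; adjusted p = 0.320) and Rpl11 at 799.8 ± 82 against 831.4 ± 26.0 CPM (SD, n = 2; adjusted p = 0.687). Of the Diamond-Blackfan list, 5 of 18 members were called lower and 0 higher, where 28.7% of all genes were called lower. The 2 tissues differed widely in marker genes of other cell types. Summed TPM in colonic and splenic libraries was 2251 and 2514 against 6.44 and 8.67 for 7 epithelial genes, 53.7 and 44.3 against 961.8 and 1041 for 6 B cell genes, 1035 and 735.5 against 14504 and 21682 for 6 neutrophil genes, and 10757 and 11134 against 286.8 and 278.2 for 6 plasma cell genes. Their part in the calls above was not tested.

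Members share reads with copies elsewhere in the genome to differing degrees. Of the 86, 63 shared no 31-base coding word with another gene and 17 shared at least 10%. The pseudogene symbols Rpl10-ps3 and Rps12-ps3, which the rule leaves out, reached 397.6 and 919.0 TPM. Rpl10-ps3 holds 93.0% of the words of Rpl10 and Rps12-ps3 63.8% of those of Rps12. Counts of Rpl10 and Rps12 therefore depend on how reads were divided.

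Estimated shares of coding isoforms separated the subsets in some members, among them Rps3 and Rps24. The 576-base coding sequence of Rps3, a 40S protein at the mRNA entry that also acts in DNA repair, held 9.42 and 10.1% of the Rps3 TPM in CD11c+, 17.0 and 19.8% in CD11b+CD11c+ and 22.7 and 23.8% in CD11b+ libraries, and 10.8 to 13.0% in the 4 MHCII+ libraries. The 393-base form of Rps24, whose last exons are alternatively spliced, held 1.64 and 1.79%, 2.74 and 3.35%, and 6.96 and 6.69% in the same subset order. In both genes the 3 pairs did not overlap. The 177-base form of Rpl10a held 29.2 and 30.1% in CD11c+, 33.0 and 29.5% in CD11b+CD11c+ and 34.8 and 35.1% in CD11b+ libraries, and the 195-base form of Rpl22l1 held at most 10.8% in CD11c+, 16.2 and 11.3% in CD11b+CD11c+ and 14.6 and 14.8% in CD11b+ libraries. There the CD11c+ and CD11b+ pairs did not overlap, while the double-positive libraries overlapped with 1 of the other pairs in each gene. The 177-base and 195-base forms are shorter than or close to the fragment lengths, so their shares rest on a large length correction. These 4 genes were chosen after their values were seen, and the shares were not tested.

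**Figure D5:**
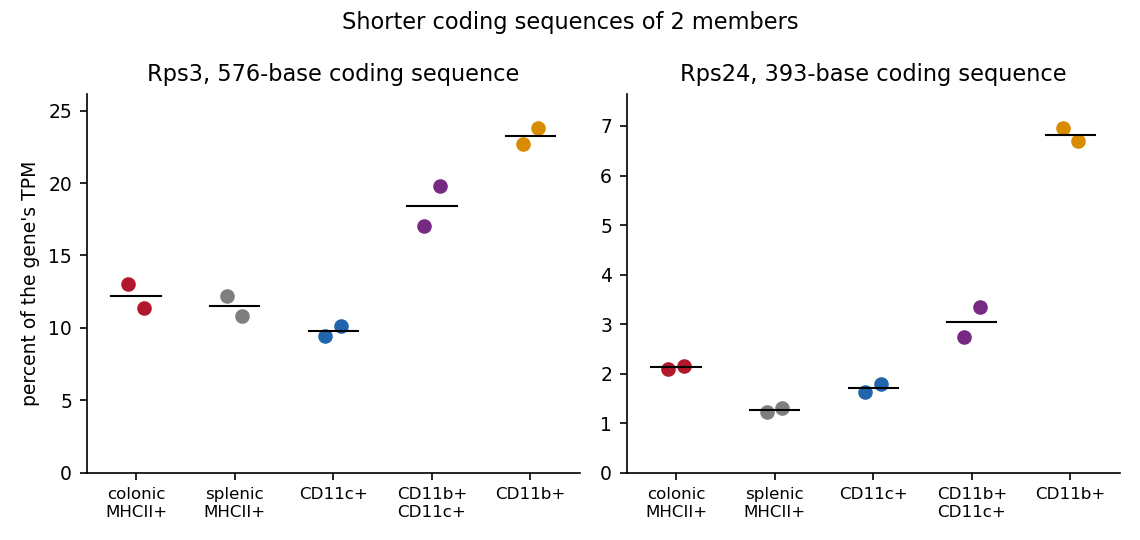
Share of the gene's TPM (percent) in the shorter coding sequence of Rps3 (576 bases) and Rps24 (393 bases), by group; points are libraries and lines the means of 2 libraries. In the colonic subsets both rise from CD11c+ over CD11b+CD11c+ to CD11b+ libraries, to 22.7 and 23.8% for Rps3.

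In some other members with more than 1 coding form, colonic MHCII+ library 2 stood out. The 603-base form of Rpl10 held 5.61% there, against 31.8 to 41.0% in the other 9 libraries. The 322-base form of Rpl15 held 35.0% there against 17.3 to 20.1%. The dominant form of Rpl22l1 was the 366-base sequence in every library, at 58.1 to 65.0%.

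Members with short and long coding sequences had these medians. In CD11b+ against CD11c+ cells the median log2 fold change was -0.55 in the 10 ribosomal members under 300 bases and -0.61 in the 72 longer ones, and in CD11b+CD11c+ against CD11c+ cells it was -0.40 and -0.38. In CD11b+CD11c+ against CD11b+ cells it was 0.14 in the shorter and 0.22 in the longer members, and in colonic against splenic MHCII+ cells it was -0.14 in 11 shorter and -0.05 in 73 longer ones.

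Counts of called genes in the lists below stand against the shares over all genes tested: 25.0% lower and 27.0% higher in CD11b+ against CD11c+ cells, 22.5% and 20.4% in CD11b+CD11c+ against CD11c+ cells, 5.84% and 3.79% in CD11b+CD11c+ against CD11b+ cells, and 28.7% and 31.6% in colonic against splenic cells. The medians of all genes were -0.02, -0.09, 0.01 and 0.02 in the same order.

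Other genes of translation differed between the subsets as well. Of 15 elongation factors and other TOP transcripts, 14 were called lower in CD11b+ than in CD11c+ cells and 0 higher, with a median of -0.58. Eef1a1, which brings aminoacyl-tRNA to the ribosome, was at 7053 ± 23.3 against 10579 ± 442.6 CPM (SD, n = 2; log2 fold change -0.58, adjusted p = 0.00763), and Eef2, which moves the ribosome along the mRNA, at 2369 ± 41.0 against 3661 ± 158.4 CPM (SD, n = 2; -0.63, adjusted p = 0.00400). The exception was Tpt1, at 2571 ± 83.8 against 2760 ± 106.3 CPM (SD, n = 2; adjusted p = 0.422). In CD11b+CD11c+ cells 12 of the 15 were called lower than in CD11c+ cells, all but Eef1a1 (-0.29, adjusted p = 0.0858), Btf3 (-0.31, adjusted p = 0.0650) and Tpt1 (0.07, adjusted p = 0.578). Between CD11b+CD11c+ and CD11b+ cells 0 of 15 were called, and between the MHCII+ groups 1 was, Nap1l1, a histone chaperone (305.2 ± 20.3 in the colon against 486.7 ± 19.1 CPM in the spleen, SD, n = 2; -0.67).

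Rack1, a scaffold protein of the 40S subunit outside the symbol rule, was called lower in CD11b+ than in CD11c+ cells (855.0 ± 43.0 against 1249 ± 54.6 CPM, SD, n = 2; -0.55, adjusted p = 0.00642). Fau, which encodes a 40S protein fused to a ubiquitin-like one, was not called (-0.27, adjusted p = 0.0577). Neither was called in the other comparisons, where the adjusted p of Rack1 was 0.0879, 0.138 and 0.368.

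The 31 initiation factors divided. In CD11b+ against CD11c+ cells 18 were called lower (25.0% of all genes were) and 4 higher (27.0%), with a median of -0.41. The 4 higher were Eif4a1, the helicase that unwinds leader sequences (1233 ± 43.4 against 873.7 ± 53.7 CPM, SD, n = 2; 0.50, adjusted p = 0.00731), Eif5 (0.30), Eif6 (0.33) and Eif4e (0.32), which binds the cap. Eif4a2, a paralog of Eif4a1, was at 378.4 ± 11.0 against 595.9 ± 63.8 CPM (SD, n = 2, log2 fold change -0.66, adjusted p = 0.00657). In CD11b+CD11c+ against CD11c+ cells 14 were called lower and 4 higher (22.5% and 20.4% of all genes), with Eif4a1 at 0.59 and Eif4a2 at -0.57. In colonic against splenic MHCII+ cells 15 of 31 were called higher and 1 lower (31.6% and 28.7% of all genes), with Eif4a1 at 1067 ± 57.7 against 710.2 ± 46.2 CPM (SD, n = 2; 0.59, adjusted p = 0.00351) and Eif1b the one lower (-0.82).

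Ribosome biogenesis factors were lower more often than higher in the CD11b+ subsets. Of 39, 20 were called lower and 1 higher in CD11b+ against CD11c+ cells (25.0% and 27.0% of all genes), with a median of -0.36. Npm1, which chaperones ribosomal subunits out of the nucleolus, was at 415.3 ± 16.6 against 672.7 ± 32.4 CPM (SD, n = 2; -0.70, adjusted p = 0.00360), while Ncl (nucleolin) was at 894.3 ± 63.6 against 1020 ± 5.53 CPM and was not called (SD, n = 2; adjusted p = 0.147). The 1 higher was Heatr1 (0.70, adjusted p = 0.00219). In CD11b+CD11c+ against CD11c+ cells 18 were called lower and 3 higher (Heatr1, Nmd3 and Sbds), and against CD11b+ cells 1 was called higher, Nop16 (0.57). In the colon 12 were called higher and 5 lower than in the spleen, where the share called higher was near the 31.6% of all genes, with Ncl at 946.9 ± 99.8 against 611.4 ± 53 CPM (SD, n = 2; 0.63, adjusted p = 0.00466).

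RNA polymerase I makes the large ribosomal RNAs. Of its 14 subunits and factors, 8 were called lower and 0 higher in CD11b+ against CD11c+ cells, and 11 and 0 in CD11b+CD11c+ against CD11c+ cells, where 25.0% and 22.5% of all genes were called lower. Its largest subunit Polr1a was at 32.6 ± 1.05 CPM in CD11b+, 40.5 ± 9.59 in CD11b+CD11c+ and 105.0 ± 1.01 in CD11c+ cells (SD, n = 2; -1.69 and -1.37, adjusted p = 0.000745 and 0.00170), while the factor Ubtf, at 106.3 ± 4.97 against 106.7 ± 0.306 CPM (SD, n = 2), was not called (adjusted p = 0.957). Between the tissues 3 were called higher and 5 lower, against 31.6% and 28.7% of all genes. Of 78 mitochondrial ribosomal proteins, 45 were called lower and 2 higher in CD11b+ against CD11c+ cells, 34 and 2 in CD11b+CD11c+ against CD11c+ cells, and 5 lower and 19 higher in colonic against splenic cells. Of all genes 25.0% and 22.5% were called lower in the first 2 of these comparisons, and 31.6% higher in the last, which is above the share of this list.

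Among 15 regulators of ribosome production, 6 were called lower and 3 higher in CD11b+ against CD11c+ cells, where 25.0% of all genes were called lower and 27.0% higher. Mtor was at 56.2 ± 0.921 against 123.1 ± 9.76 CPM (SD, n = 2; -1.13, adjusted p = 0.00145), Larp1 at 157.4 ± 6.01 against 208.6 ± 20.1 CPM (SD, n = 2; -0.41, adjusted p = 0.0283) and Rheb, the GTPase that activates mTOR, at 114.8 ± 12.2 against 143.4 ± 5.74 CPM (SD, n = 2; -0.32, adjusted p = 0.0388). The 3 higher were Eef2k, the kinase that inactivates Eef2 (1.36), Akt1s1 (0.57) and Max (0.49). In CD11b+CD11c+ cells Mtor stood at 88.1 ± 14.9 CPM (SD, n = 2), called lower than in CD11c+ cells (-0.48, adjusted p = 0.0298) and higher than in CD11b+ cells (0.65, adjusted p = 0.0350). Between the tissues 3 were called higher and 7 lower (31.6% and 28.7% of all genes), with Rheb at 145.8 ± 8.80 CPM in the colon against 57.6 ± 1.72 CPM in the spleen (SD, n = 2; 1.34, adjusted p = 5.83e-05).

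The p53 list is given beside Rps27l because that paralog is a known p53 target. Cdkn1a, the cell cycle inhibitor p21, was at 185.0 ± 8.60 CPM in colonic against 16.4 ± 5.64 CPM in splenic MHCII+ cells (SD, n = 2; 3.49, adjusted p = 4.32e-05). Mdm2, which degrades p53, was at 164.1 ± 1.94 against 87.8 ± 3.99 CPM (SD, n = 2; 0.90, adjusted p = 0.000257). Of the 12 listed genes, 4 were called higher in the colon, near the 31.6% of all genes, and 2 were called lower, and Trp53 itself was among the lower (-0.46, adjusted p = 0.00446).

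In the subsets Cdkn1a was at 66.7 ± 37.7 CPM in CD11c+, 317.6 ± 70.3 in CD11b+CD11c+ and 292.9 ± 19.9 in CD11b+ cells (SD, n = 2), and the last 2 differed by 0.12 on the log2 scale (SE 0.37, adjusted p = 0.878). Mdm2 was at 99.6 ± 16.9, 237.3 ± 10.9 and 242.9 ± 27.2 CPM in the same order (SD, n = 2). Of 11 tested genes, 4 were called higher and 3 lower in each CD11b+ subset against CD11c+ cells, where 27.0% and 20.4% of all genes were called higher and 25.0% and 22.5% lower. Between CD11b+CD11c+ and CD11b+ cells 0 were called higher and 1 lower (Phlda3, 1.40 ± 0.223 against 4.57 ± 0.492 CPM, SD, n = 2). What part p53 had in the levels of Rps27l was not tested.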

How the data were processed

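One table per library was deposited, with 66760 transcripts each. Its estimated counts come from kallisto and carry no scaling for depth per the file headers, and TPM is the authors' deposited relative abundance on effective lengths, per the file headers. Named in the submitters' processing notes are mm10, kallisto 0.44.0 and sleuth, while the release of the index and the handling of strand are not stated there. Of the deposited lengths, 88.9% are multiples of 3, so they are coding lengths and reads from untranslated regions did not count.

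Transcripts were matched by identifier to GENCODE M21 (65747, or 98.48%); the unmatched held 0.532 to 0.912% of a library's counts and were left out. Counts were summed per gene and rounded. The MHCII+ set (4 libraries) and the subset set (6 libraries) were fitted separately with edgeR 4.0.16 in R 4.3.3 (filterByExpr, TMM, quasi-likelihood F test, group as the only term), and 15076 and 14225 genes were tested. A gene was called where its p, adjusted with Benjamini-Hochberg across the whole fit, was under 0.05. Every adjusted p in the results is from this test. CPM are on TMM-scaled library sizes. The script was tested on simulated data.

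The members, the 28 gene lists and the tests were chosen with earlier results of these data known. Named were the 6 largest rises and falls past the threshold, the stalk, 5S and paralog lists, the 5 highest and lowest members and up to 3 genes of each pathway list by mean CPM, together with genes of counts of 5 or fewer and the isoforms, which were chosen after their values were seen. Copies were sought by shared 31-base words of the coding sequences. Alternatives were other scalings, DESeq2 1.42.0, limma 3.58.1 on log2(TPM + 1) and log2(TPM + 0.1), no count filter, an effective length offset, a replicate block, a fit over all 10 libraries, members with few shared words, and leaving out each library. The 2 libraries of each group differed by more than sampling noise (chi-square per gene 10.8 to 38.5), so none was a repeat deposit. Genome coordinates are 1-based. Some genes within the counts are not reported by name here.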

Additional observations from a re-analysis of the deposited data

How the results depend on the processing

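With 2 libraries per group and residual spread taken from 4 or 6 libraries, calls rest on few degrees of freedom; short coding sequences and near-identical copies limit single members. Where a single library is left out of a group, the remaining one is assumed to vary like the others.

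In colonic against splenic MHCII+ cells, limma on log2(TPM + 1) and on log2(TPM + 0.1) each called 2 members higher, with a median of -0.25. Of all genes 22.4% and 23.5% were called higher there, and the medians of all genes were -0.12 and -0.15. Under total count scaling 17 members were called lower (31.6% of all genes), with the effective length offset 5 (22.4%) and in the fit over all 10 libraries 14 (30.7%). Leaving out 1 library gave 4 to 10 higher, 3 to 18 lower and medians of -0.18 to -0.01. No paired analysis was possible because both splenic titles carry the same number. In CD11b+ against CD11c+ cells, both limma fits gave a median of -0.53 for the members, and 0.04 and 0.05 for all genes. Leaving out 1 library gave medians of -0.63 to -0.58. In CD11b+CD11c+ against CD11c+ cells, total count scaling called 0 higher with a median of -0.52, both limma fits called 27 lower, and leaving out 1 library gave 0 to 1 higher, 1 to 59 lower and medians of -0.49 to -0.24. In CD11b+CD11c+ against CD11b+ cells, 9 were called higher under TMM without members and immunoglobulin genes (6.52% of all genes) and 27 with DESeq2 (7.14%). Without a count filter 12 were (5.84% of all genes, median of the members 0.31), in the fit over all 10 libraries 19 (7.3%) and with the replicate block 3 (4.3%). Leaving out 1 library gave medians of 0.13 to 0.38. Summed TPM gave shares of 12.4, 14.9, 12.4, 9.70 and 8.58% in colonic MHCII+, splenic MHCII+, CD11c+, CD11b+CD11c+ and CD11b+ cells. The cause of these shifts was not tested.

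The replicate numbers were not shown to pair the subset libraries, as the correlation of deviations was 0.43 between CD11c+ and CD11b+CD11c+, -0.04 between CD11c+ and CD11b+ and 0.00 between CD11b+CD11c+ and CD11b+. With the replicate block, 81 members were called lower in CD11b+ and 67 in CD11b+CD11c+ against CD11c+ cells. Of all genes 24.7% and 22.2% were called lower there.

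Among the named members, signs turned only in ones that were not called. Rpl36a (colonic minus splenic) was at -0.02 under total count scaling, -0.14 in both limma fits and between -0.11 and 0.18 with 1 library left out, and Rpl7l1 at -0.06 in both limma fits. In CD11b+CD11c+ minus CD11b+ cells, Rpl22l1 was at -0.04 under total counts, -0.01 in both limma fits and between -0.03 and 0.21 with 1 library left out, Rpl36al at -0.03 under total counts and between -0.03 and 0.23 with 1 library left out, and Rps19bp1 between -0.32 and 0.00 with 1 library left out.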
